A study of Bos taurus with 13 samples.

Results

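Gene expression was compared in the testes of newborn bull calves whose dams had received a mixture of inorganic and organic selenium (Mix, 4 calves) or inorganic selenium only (ISe, 5 calves). These were 9 of the 13 arrays of the series, 1 array per calf, taken by their titles, and all 26773 probe sets of each array were used. The dams were Angus cross cows, and each had free choice of a mineral mix holding 35 ppm of selenium from 4 months before breeding and through gestation. In ISe that selenium was sodium selenite, and in Mix 50% of it came from sodium selenite and 50% from the selenium yeast Sel-Plex. The third group, OSe (4 calves), had received all of it as selenium yeast and is used here only for reference. All groups were therefore offered mixes of the same selenium content, although free choice does not fix the intake of a cow. A group without supplement is not analysed here. The labels name 24 cows, 8 per treatment, and testes taken within 2 days of birth. No calf was profiled on more than 1 array, and the spread within a group is thus a spread between animals. Animal numbers recur in each group but were treated as unpaired.

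Selenium acts mainly through selenoproteins, enzymes that carry it as the amino acid selenocysteine, among them glutathione peroxidases, thioredoxin reductases and the iodothyronine deiodinases. Selenite is reduced to selenide within cells, while the selenomethionine of yeast can also enter proteins in place of methionine before its selenium is freed. The testis is known to hold on to selenium when supply is short, through the carrier SELENOP, and its germ cells depend on GPX4. In a newborn bull calf the seminiferous cords hold Sertoli cells and gonocytes, the precursors of spermatogonia, and fetal-type Leydig cells lie between the cords.

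The tissue label was checked against defining markers, all values being log2 array signals as deposited. All 5 Leydig cell markers (INSL3, LHCGR, CYP17A1, CYP11A1 and HSD3B1), all 5 Sertoli cell markers and all 4 germ cell markers lay above the 25th percentile of all probe sets, 6.26, below which a probe set is called dim here. The mean over the Leydig markers spanned 10.96 to 11.28 in the ISe calves and 10.88 to 11.56 in the Mix calves, and that over the Sertoli markers 10.46 to 10.6 and 10.4 to 10.6. The granulocyte marker S100A8, the duct marker KRT19 and the fat cell marker ADIPOQ were dim, and the smooth muscle marker ACTA2 had no probe set of its own. Medians of the 9 arrays lay between 7.61 and 7.65, and correlations between the arrays across probe sets between 0.982 and 0.991. The lower quartile of an array lay between 6.22 and 6.26 in ISe and between 6.25 and 6.3 in Mix, slightly higher in Mix. In a bulk tissue, fewer cells of a type and less RNA per cell cannot be told apart.

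No gene passed the test between Mix and ISe. The limma fit called 0 of 26773 probe sets (0%) at an adjusted p of 0.05, the lowest adjusted p being 0.967. By unadjusted p under 0.05 there were 995 (3.72%), of which 459 lay higher and 536 lower in Mix. An unmoderated linear model gave 0 at the adjusted threshold and 945 by unadjusted p. When each of 18087 genes was represented by its brightest probe set, 301 genes (1.66%) were higher and 333 (1.84%) lower in Mix by unadjusted p. In 99 genes (0.547%) every Mix calf lay above every ISe calf, and in 87 (0.481%) every Mix calf lay below. The median difference over all genes was 0.0059 on the log2 scale, with 9418 genes (52.1%) higher in Mix. Because nothing passed, genes below are said to lie higher or lower, and their values describe these 9 calves.

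Differences between the groups were small beside the spread between calves. The median standard deviation within groups was 0.172 over all probe sets, and the median standard error of a difference 0.113. The 95% interval of a difference therefore reached 0.244 to either side at the median, or 1.185-fold. A difference of 1.5-fold was exceeded by 15 genes higher and 31 lower in Mix. Of these genes, 31 had an unadjusted p under 0.05 and 6 showed no overlap between the groups. Only 3 genes differed by over 2-fold, all lower in Mix: the histocompatibility gene BOLA-DQA1, the matrix gene LUM and the unnamed locus LOC100140174 at -1.76, the only 1 of the 3 without overlap between the groups.

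**Figure D1:**
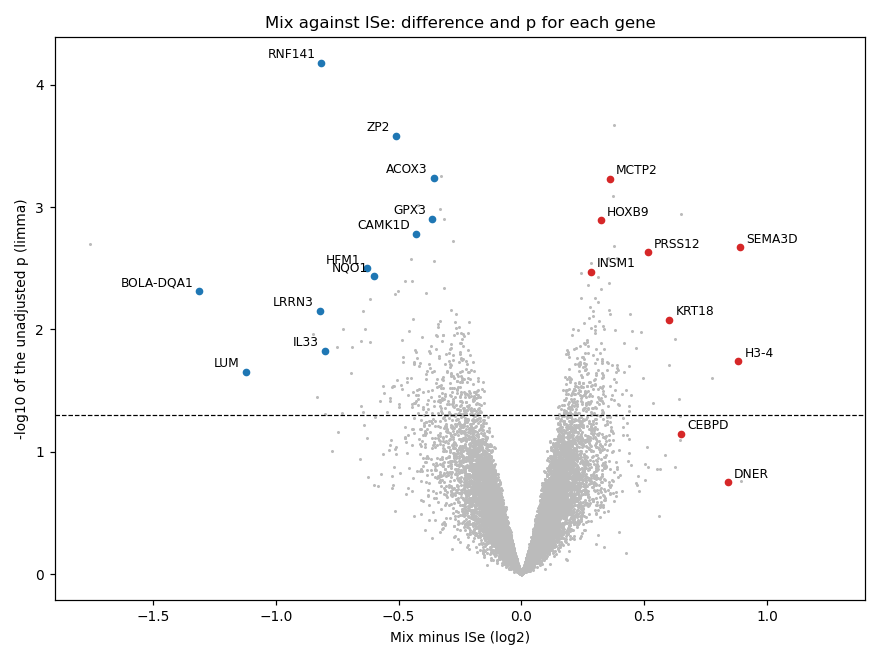
Each point is 1 of 18087 genes, with the Mix minus ISe difference (log2) on the horizontal axis and -log10 of the unadjusted limma p on the vertical axis. The dashed line marks an unadjusted p of 0.05. RNF141 at -0.81 stands highest, LUM and BOLA-DQA1 lie far to the left and SEMA3D and H3-4 to the right; coloured points are named in the text, and 0 genes passed the adjusted threshold.

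RNF141, a RING finger protein first described in human testis, had the smallest p of all genes. Its log2 values were 9.94, 9.82, 9.66, 9.86 and 10.10 in ISe animals 1 to 5 and 8.79, 8.78, 9.41 and 9.27 in Mix animals 1 to 4. The groups did not overlap, the lowest ISe calf lying above the highest Mix calf, and Mix animals 1 and 2 were the lowest. The difference was -0.81 ± 0.14 (SE; 95% interval -1.12 to -0.51), 1.76-fold lower in Mix, with a limma adjusted p of 0.967. The exact two-sided permutation p for this gene alone was 0.0079, the smallest that 5 against 4 calves can give. The gene was chosen by its p in these same calves, a choice that by itself favours a low value. The OSe mean was 10.03, close to ISe. The 4 genes that precede RNF141 and the 4 that follow it in the gene order of assembly ARS-UCD2.0 (EIF4G2, CTR9, IRAG1 and LYVE1, then AMPD3, ADM, SBF2 and SWAP70) differed by between -0.29 (LYVE1) and 0.25 (ADM), and 0 of the 8 had an unadjusted p under 0.05. Among measured genes named RNF, which encode RING finger proteins, 32 of 68 lay higher in Mix with a median of -0.002. Besides RNF141, RNF24 at -0.33 ± 0.13 and RNF122 at 0.26 ± 0.11 had an unadjusted p under 0.05.

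GPX3, the secreted glutathione peroxidase and a selenoprotein, was the first selenium gene by p. Its values were 8.29, 7.99, 8.24, 8.04 and 8.18 in ISe animals 1 to 5 and 7.81, 7.67, 7.96 and 7.69 in Mix animals 1 to 4. Every Mix calf lay below every ISe calf, although Mix animal 3 lay close below ISe animal 2. The difference was -0.36 ± 0.09 (SE; 1.29-fold; limma adjusted p 0.967), and the OSe mean of 7.92 fell between those of ISe (8.15) and Mix (7.78). The 8 nearest genes in the same gene order (RBM22, DCTN4, SMIM3, ZNF300, TNIP1, ANXA6, CCDC69 and GM2A) differed by between -0.13 (GM2A) and 0.13 (ZNF300), again with 0 below an unadjusted p of 0.05. ACOX3, a peroxisomal oxidase of branched-chain fatty acids, measured 8.57, 8.53, 8.50, 8.59 and 8.62 in ISe animals 1 to 5 and 8.39, 8.13, 8.20 and 8.10 in Mix animals 1 to 4. The ISe calves were tightly grouped and all lay above Mix, of which animal 1 was the highest. ACOX3 differed by -0.36 ± 0.08, 1.28-fold.

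Among genes with a symbol that were not dim, the 15 with the smallest p on each side were followed. On the lower side 12 of the 15 showed no overlap, against 0.481% of all genes, a count that the choice by p raises by itself. ZP2, known as a glycoprotein of the egg coat, was at 9.51 to 9.79 in ISe and 8.85 to 9.34 in Mix (difference -0.51 ± 0.10). HFM1, a DNA helicase of meiotic crossing over, lay at 6.74 to 7.55 in ISe and 6.24 to 6.74 in Mix (-0.63 ± 0.17). MOCS2, which makes the molybdenum cofactor of sulfite oxidase and xanthine dehydrogenase, was at 7.75 to 7.91 in ISe and 7.48 to 7.59 in Mix (-0.32 ± 0.08). In all 3 genes the groups stood apart, in HFM1 only barely. CHST7, a sulfotransferase of chondroitin, differed by -0.33 ± 0.08, and CAMK1D, a calcium-dependent protein kinase, by -0.43 ± 0.11. NQO1, a quinone reductase, measured 8.83, 8.67, 8.69, 8.50 and 9.11 in ISe animals 1 to 5 and 8.20, 8.28, 8.54 and 7.61 in Mix animals 1 to 4. ISe and Mix overlapped slightly in NQO1, with Mix animal 3 above ISe animal 4, and Mix animal 4 was lowest; the difference was -0.60 ± 0.17. BCAT2, the mitochondrial transaminase of branched-chain amino acids, differed by -0.50 ± 0.15, with Mix animal 2 lowest at 7.71 and Mix animal 1 within the ISe range. The remaining named genes on this side were TMEM60, a membrane protein, at -0.36 ± 0.10 and the zinc finger genes ZNF572, ZNF461 and ZNF354A at -0.33 ± 0.07, -0.42 ± 0.10 and -0.32 ± 0.09. BOLA-DQA1 also belongs to the 15. Without Mix animal 2, BCAT2 was at -0.33.

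On the higher side, 11 of the 15 genes with the smallest p showed no overlap, against 0.547% of all genes. The choice by p raises this count as well. MCTP2, a membrane protein with calcium-binding C2 domains, measured 6.59, 6.88, 6.76, 6.98 and 6.92 in ISe animals 1 to 5 and 7.21, 7.20, 7.14 and 7.21 in Mix animals 1 to 4. All Mix calves lay above all ISe calves, and Mix animals 1, 2 and 4 were nearly equal. The difference was 0.36 ± 0.08. SEMA3D, a secreted guidance cue of axons and vessels, was at 8.71, 8.83, 9.53, 9.13 and 8.17 in ISe animals 1 to 5 and 9.56, 10.12, 9.57 and 9.81 in Mix animals 1 to 4. The lowest Mix calf stood just above ISe animal 3, and ISe animal 5 was the lowest of all. SEMA3D differed by 0.89 ± 0.23, 1.85-fold, with an OSe mean of 9.62, nearer to Mix. PRSS12, a serine protease of synapses, differed by 0.52 ± 0.14 with a slight overlap, and SLC43A3, a transporter of purine nucleobases, by 0.24 ± 0.07 without overlap. KRT18, a keratin of simple epithelia, measured 7.70, 7.62, 7.61, 7.77 and 7.72 in ISe animals 1 to 5 and 8.01, 8.25, 7.83 and 9.06 in Mix animals 1 to 4. The groups did not overlap, but Mix animal 4 alone stood at 9.06, and the difference was 0.60 ± 0.20. The OSe mean fell between those of ISe and Mix in 13 of these 15 genes and on the far side of ISe in 2, while among the 15 lower genes it fell between in 8 and beyond ISe in 7. Choosing genes by their ISe and Mix values favours an OSe mean between them. Without Mix animal 4, KRT18 was at 0.35.

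The other genes first by p on the higher side covered several functions. The transcription factors HOXB9 (0.32 ± 0.08), INSM1 (0.28 ± 0.08) and SHOX (0.31 ± 0.09) act in patterning, neuroendocrine differentiation and limb growth. PRDM15, a zinc finger regulator of transcription, was at 0.24 ± 0.07. LPAR2, a receptor for lysophosphatidic acid, was at 0.36 ± 0.11, and SOCS3, which dampens cytokine signalling through STAT3, at 0.29 ± 0.09. ATP4A, the catalytic subunit of the gastric proton pump, differed by 0.29 ± 0.09 on its brightest probe set and by 0.05 on another. PTPRH, a receptor tyrosine phosphatase, TNNC1, the troponin C of slow muscle and heart, and RASGRP2, an activator of the small G protein Rap, were at 0.28 ± 0.09, 0.32 ± 0.10 and 0.26 ± 0.08. Of these 10 genes, LPAR2, SOCS3 and TNNC1 overlapped between the groups.

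**Figure D2:**
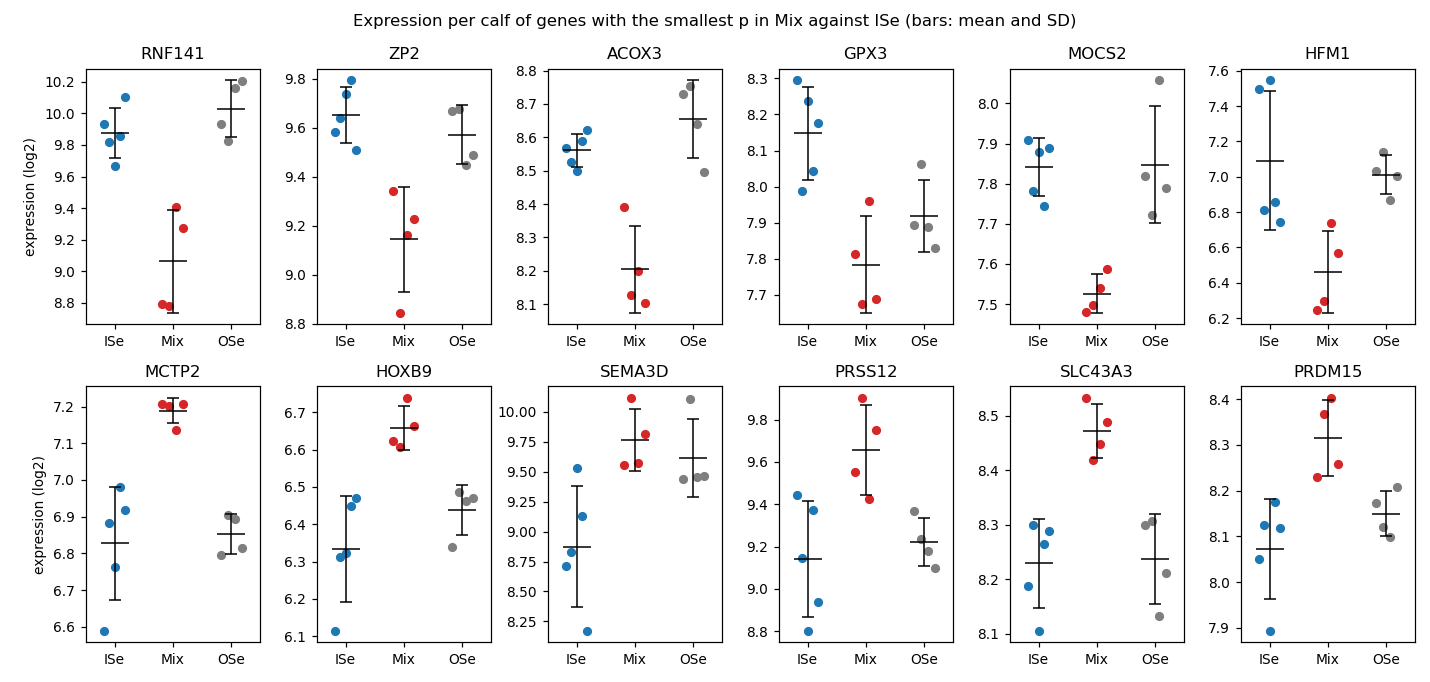
Points are single calves in ISe (5), Mix (4) and OSe (4), with log2 expression on the vertical axis and a separate scale for each gene; the wide tick and bars give the mean and SD of a group. In the upper row, genes lower in Mix, and in the lower row, genes higher in Mix, the Mix calves stand apart from ISe in all panels but PRSS12, where the lowest Mix calf at 9.42 lies below the highest ISe calf at 9.45. The panels show some, not all, of the 15 genes with the smallest p on each side. Choice by p in these same calves favours groups that stand apart.

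Genes were also ranked by size rather than p, again among those with a symbol that is no placeholder and that were not dim, and the 10 largest differences on each side were followed. BOLA-DQA1, the alpha chain of a cattle class II histocompatibility molecule, measured 9.89, 9.57, 8.50, 10.06 and 8.29 in ISe animals 1 to 5 and 8.58, 7.99, 7.38 and 7.84 in Mix animals 1 to 4. ISe spread widely, with animals 3 and 5 inside the Mix range, and the difference was -1.31 ± 0.39 (2.48-fold). A second, dim probe set of the gene differed by 0.39 in the other direction. BOLA-DQB1, its partner chain, was at 11.18, 10.41, 10.10, 11.51 and 9.52 in ISe animals 1 to 5 and 9.84, 9.58, 9.84 and 9.93 in Mix animals 1 to 4. The same ISe animals 3 and 5 were lowest in ISe, and BOLA-DQB1 differed by -0.75 ± 0.38. These genes have near-identical copies, so a probe set may not be specific to 1 of them. LUM, the collagen-binding proteoglycan lumican, measured 10.09, 10.44, 10.06, 9.49 and 10.21 in ISe animals 1 to 5 and 9.71, 8.42, 8.53 and 9.09 in Mix animals 1 to 4. Mix animals 2, 3 and 4 lay below all ISe calves and Mix animal 1 above ISe animal 4; LUM differed by -1.12 ± 0.43.

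IL33, a nuclear alarmin of the interleukin 1 family found in stromal and endothelial cells, measured 9.03, 8.07, 9.43, 7.75 and 8.74 in ISe animals 1 to 5 and 7.90, 7.66, 7.83 and 7.82 in Mix animals 1 to 4. The 4 Mix calves lay close together and ISe animal 4 lay among them, the difference being -0.80 ± 0.29. The orphan receptor GPR22, the neuronal leucine-rich repeat protein LRRN3 and the adhesion molecule CDH10 differed by -0.85 ± 0.29, -0.82 ± 0.26 and -0.75 ± 0.26, and each had ISe animal 4 as its lowest ISe calf. MSTN, myostatin, a growth inhibitor of muscle, measured 6.58 to 8.17 in ISe and 6.15 to 7.68 in Mix and differed by -0.77 ± 0.43. The olfactory receptor gene OR13P13 was at -0.83 ± 0.36. ISe animal 2 alone stood at 8.12, and every other calf of both groups lay between 5.48 and 6.25, below the dim cutoff of 6.26. OR13P13 thus counted as not dim only by its mean. Of these 10 negative differences, 8 had an unadjusted p under 0.05 and only RNF141 showed no overlap. Without ISe animal 2, OR13P13 was at -0.44.

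The 10 positive differences included a pair of histone genes. H3-4, whose human counterpart encodes a testis form of histone H3, measured 10.03, 9.58, 9.09, 10.37 and 9.63 in ISe animals 1 to 5 and 10.37, 10.67, 11.23 and 10.23 in Mix animals 1 to 4. H2AC1, whose human counterpart encodes a testis form of histone H2A, was at 10.34, 10.08, 9.18, 10.82 and 10.44 in ISe animals 1 to 5 and 10.86, 11.06, 11.37 and 10.52 in Mix animals 1 to 4. In both genes ISe animal 3 was lowest and Mix animal 3 highest, and ISe animal 4 lay within the Mix range. The differences were 0.88 ± 0.33 and 0.78 ± 0.31, and histone genes have near-identical copies. OR2J3D, an olfactory receptor gene, and DNER, a transmembrane ligand of Notch, were at 0.89 ± 0.62 and 0.84 ± 0.59. In OR2J3D the ISe animals 2 and 3 were at 4.39 and 3.77 and all other calves of both groups between 6.50 and 7.17. In DNER the ISe animals 1, 2 and 3 lay between 6.14 and 6.62 and animals 4 and 5 at 8.49 and 8.79, beside 7.82 to 8.65 in Mix. Without ISe animal 3, OR2J3D was at 0.38 and DNER at 0.55.

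CEBPD, a transcription factor of the acute phase response, CLDN1, a tight junction protein, and S100A12, a calcium-binding protein of granulocytes, were at 0.65 ± 0.33, 0.65 ± 0.34 and 0.65 ± 0.30. Mix animal 4 was the highest calf in CEBPD (11.04) and CLDN1 (12.42), and Mix animals 3 and 4 stood at 7.93 and 7.82 in S100A12, above all ISe calves. The small RNA polymerase subunit POLR2L and the brain sulfotransferase SULT4A1 were at 0.64 ± 0.28 and 0.63 ± 0.21. Of these 10 positive differences, 5 had an unadjusted p under 0.05 and only SEMA3D showed no overlap. Without Mix animal 3, S100A12 was at 0.40, and without Mix animal 4, CEBPD was at 0.27 and CLDN1 at 0.33.

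Genes were next described in 71 lists by cell type, pathway or family, holding 2020 different genes. For each list the count of members above or below ISe and the median Mix minus ISe difference (log2) are given, followed in brackets by the lowest and highest median with each ISe or Mix calf left out in turn. These are to be read against all genes, of which 52.1% lay higher with a median of 0.0059. Members named by unadjusted p are likewise read against 1.66% of all genes higher and 1.84% lower. Members without overlap are read against 0.547% higher and 0.481% lower. The median was above 0 in 37 lists and below 0 in 34, between -0.11 (basement membrane) and 0.19 (gonocytes). It kept its sign whichever calf was left out in 38 lists and changed sign in 33. The mean of a list's genes in each calf overlapped between the groups in all 71 lists.

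**Figure D3:**
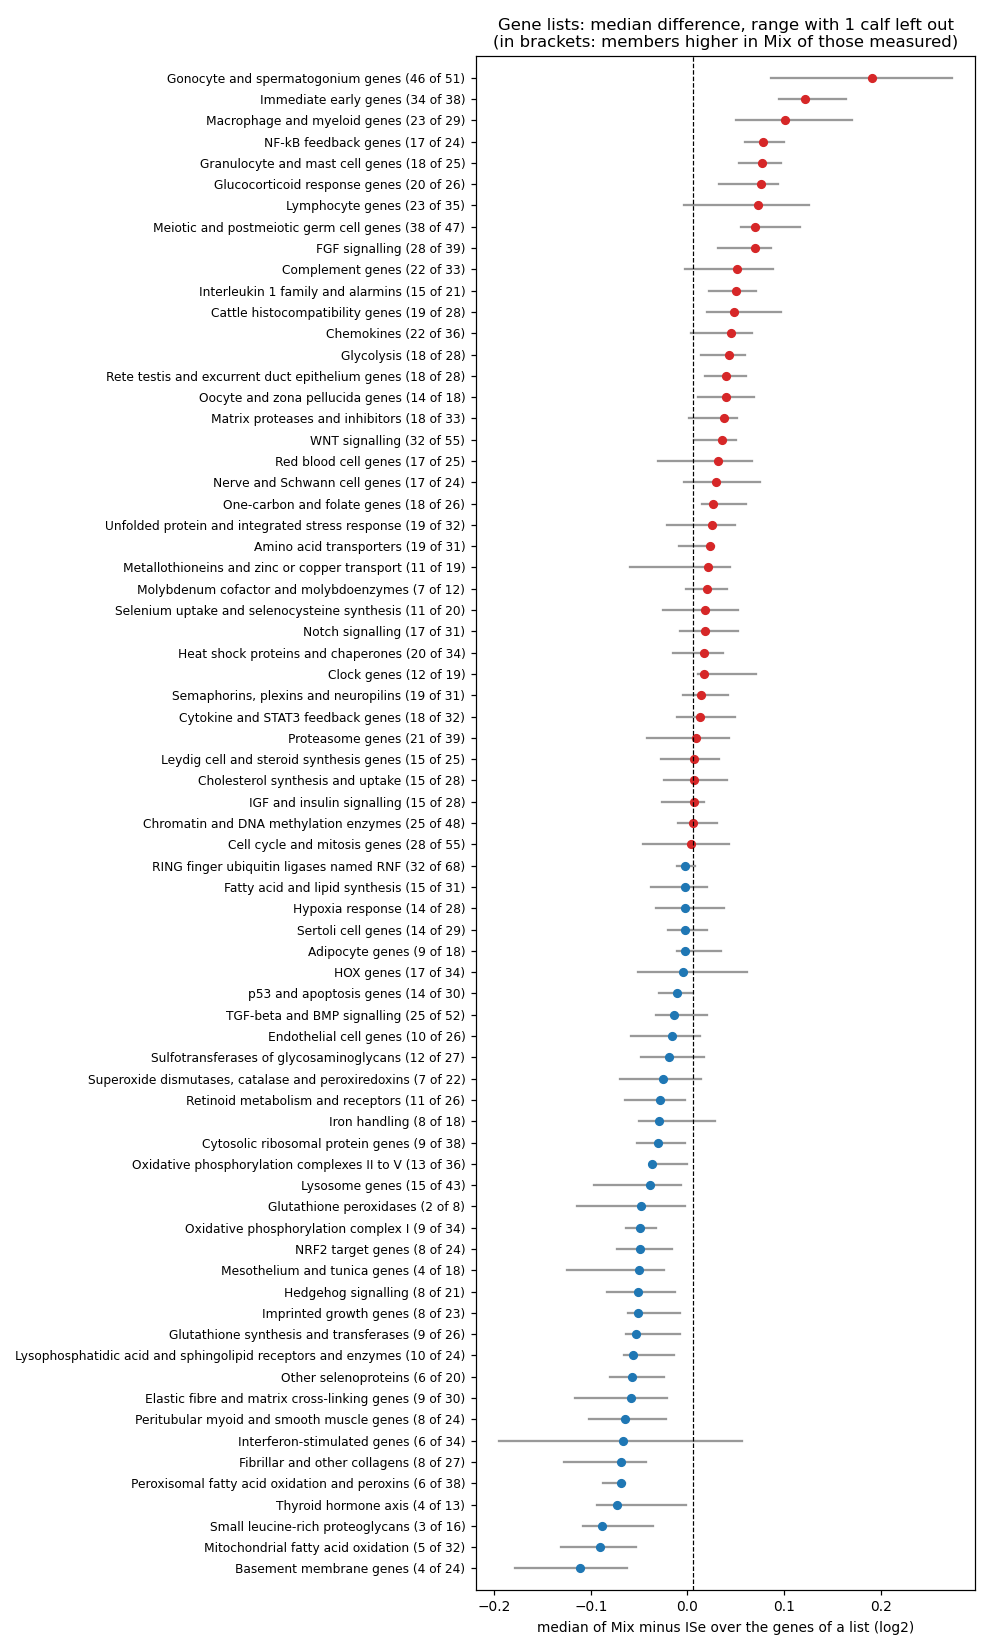
Points give the median Mix minus ISe difference (log2) over the measured genes of each of 71 lists, red above 0 and blue below; grey lines span the medians with 1 calf left out. The dashed line is the median of all genes, 0.0059, and the counts in brackets give members higher in Mix of those measured. The gonocyte list lies farthest to the right at 0.19 and the basement membrane list farthest to the left at -0.11.

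Among the selenium genes, none but GPX3 had an unadjusted p under 0.05 apart from PAPSS1, described below with the supply genes. Among glutathione peroxidases, 6 of 8 lay lower with a median of -0.05 (-0.11 to -0.002), and 1 (GPX3) had an unadjusted p under 0.05. Not all 8 carry selenium, GPX5 and GPX7 being among those that lack it. GPX1, the cytosolic enzyme, was at -0.02 ± 0.08, and GPX4, which reduces lipid peroxides in membranes, at 0.02 ± 0.11. GPX5, the epididymal form, was at -0.28 ± 0.24 (dim), GPX6 at -0.07 ± 0.18 and GPX7, a form of the endoplasmic reticulum, at -0.14 ± 0.10. Other selenoproteins lay lower in 14 of 20 cases, the median being -0.06 (-0.08 to -0.02) and 0 by unadjusted p. DIO3, the deiodinase that inactivates thyroid hormone, was at -0.47 ± 0.25, SELENON, a calcium-handling protein of the endoplasmic reticulum, at -0.19 ± 0.10, and the thioredoxin reductases TXNRD1 and TXNRD2 at -0.11 ± 0.07 and -0.09 ± 0.07. The carrier SELENOP was at -0.11 ± 0.12 and the small redox protein SELENOW at -0.06 ± 0.08. The 95% intervals of GPX1 (-0.20 to 0.16), GPX4 (-0.22 to 0.25) and SELENOW (-0.23 to 0.11) all held 0. Without ISe animal 1, GPX4 was at -0.03, without ISe animal 3, GPX6 was at 0.07, and without ISe animal 4, GPX5 was at -0.47 and GPX6 at -0.17. Without ISe animal 5, GPX5 was at -0.17, without Mix animal 1, GPX1 was at -0.06, SELENOP at -0.03 and SELENOW at -0.09, and without Mix animal 2, DIO3 was at -0.31 and SELENOP at -0.20. Without Mix animal 3, GPX4 was at 0.06, GPX7 at -0.07 and SELENOW at -0.02, and without Mix animal 4, GPX1 was at 0.02.

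The machinery of selenium supply was higher in 11 of 20 members, median 0.02 (-0.03 to 0.05). PAPSS1, which activates sulfate and is listed for its place in selenate reduction, was its only member by unadjusted p, at -0.17 ± 0.08, without overlap. SEPHS1, a selenophosphate synthetase homologue, was at -0.12 ± 0.07, CBS, an enzyme of transsulfuration, at 0.17 ± 0.10, and ELAVL1, an RNA-binding protein that binds selenoprotein messages, at 0.13 ± 0.08. Genes of the thyroid hormone axis, on which the selenium-dependent deiodinases act, lay lower in 9 of 13, median -0.07 (-0.09 to -0.001), with the carrier TTR at 0.20 ± 0.10 as its only member without overlap. The molybdenum cofactor list, which holds MOCS2, was higher in 7 of 12, median 0.02 (-0.001 to 0.04): MOCOS, the sulfurase that activates xanthine dehydrogenase, was at 0.23 ± 0.10, sulfite oxidase, SUOX, at -0.30 ± 0.15 and MTARC2 at -0.26 ± 0.14. MOCS2 and MOCOS thus lay on opposite sides. Without Mix animal 3, MOCOS was at 0.15, and without Mix animal 4, ELAVL1 was at 0.07 and MTARC2 at -0.15.

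Antioxidant genes lay mostly lower in Mix. Targets of NRF2, the regulator of the oxidant response, were lower in 16 of 24 members, median -0.05 (-0.07 to -0.02), and only NQO1 had an unadjusted p under 0.05. OSGIN1 was at 0.15 ± 0.08 and the glutathione conjugate exporter ABCC1 at 0.23 ± 0.16, both higher. Superoxide dismutases, catalase and peroxiredoxins were lower in 15 of 22, median -0.03 (-0.07 to 0.01). SOD3, the superoxide dismutase of the extracellular matrix, measured 11.69, 11.12, 11.74, 10.85 and 11.90 in ISe animals 1 to 5 and 11.04, 10.55, 10.85 and 10.77 in Mix animals 1 to 4. ISe animal 4 lay within the Mix range and the other ISe calves above it, and SOD3 differed by -0.66 ± 0.23. Catalase, CAT, was at -0.19 ± 0.10, SESN3 at -0.21 ± 0.13 and the glutaredoxin GLRX at -0.23 ± 0.15. Glutathione synthesis and transferase genes were lower in 17 of 26, median -0.05 (-0.06 to -0.008): the transferases GSTP1, GSTK1 and GSTT2 were at -0.28 ± 0.12 (dim), -0.20 ± 0.13 and 0.29 ± 0.14, GSTT2 being higher without overlap. Metallothionein and zinc or copper transport genes were higher in 11 of 19, median 0.02 (-0.06 to 0.04), and iron genes lower in 10 of 18, median -0.03 (-0.05 to 0.03), each with 0 by unadjusted p. Without ISe animal 3, SESN3 was at -0.12, without Mix animal 2, ABCC1 was at 0.15, and without Mix animal 4, CAT was at -0.12 and GSTK1 at -0.09.

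Fatty acid oxidation genes lay lower in Mix in both organelles that carry it out. Among genes of peroxisomal oxidation and peroxisome assembly, 32 of 38 lay lower, with a median of -0.07 (-0.09 to -0.07). By unadjusted p, 5 of them were lower and 0 higher, beside 1.84% and 1.66% of all genes. Besides ACOX3, these were CROT, which hands shortened fatty acids on as carnitine esters (-0.38 ± 0.14), HSD17B4, the bifunctional enzyme of peroxisomal beta-oxidation (-0.22 ± 0.09), PHYH, which starts the breakdown of phytanic acid (-0.21 ± 0.09), and the thiolase and sterol carrier SCP2 (-0.32 ± 0.14). CROT measured 10.49, 10.49, 10.76, 10.21 and 10.84 in ISe animals 1 to 5 and 10.37, 10.13, 10.27 and 9.94 in Mix animals 1 to 4. Mix animals 1 and 3 lay within the ISe range, whose lowest calf was animal 4. HSD17B4 measured 11.01, 10.98, 11.24, 10.93 and 11.06 in ISe animals 1 to 5 and 10.91, 10.69, 10.86 and 10.82 in Mix animals 1 to 4, and the groups just stood apart. The list mean, as a deviation from the mean of the 9 calves, was 0.06, 0.02, 0.08, -0.02 and 0.07 in ISe animals 1 to 5 and 0.03, -0.12, -0.03 and -0.10 in Mix animals 1 to 4. Mix animal 1 was the only Mix calf above 0 and ISe animal 4 the only ISe calf below it. Without Mix animal 4, PHYH was at -0.12.

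Mitochondrial fatty acid oxidation genes lay lower in 27 of 32 cases, the median being -0.09 (-0.13 to -0.05). ECI2, an isomerase of unsaturated fatty acids, was at -0.23 ± 0.09 on its brightest probe set and 0.07 on a dim one. ETFA, an electron carrier of the acyl-CoA dehydrogenases, was at -0.18 ± 0.07, ACAD11 at -0.21 ± 0.10 and the uncoupling protein UCP3 at 0.22 ± 0.10 (dim). The list mean per calf was 0.09, 0, 0.11, -0.09 and 0.07 in ISe animals 1 to 5 and 0.03, -0.08, -0.04 and -0.09 in Mix animals 1 to 4. ISe animal 4 was again as low as Mix. Complex I of the respiratory chain was lower in 25 of 34 members, median -0.05 (-0.06 to -0.03), with NDUFA6 at -0.21 ± 0.08 without overlap and NDUFA9 at 0.13 ± 0.07. Complexes II to V were lower in 23 of 36, median -0.04 (-0.04 to 0), with UQCR10 of complex III at -0.18 ± 0.09 and 0 by unadjusted p. Fatty acid and lipid synthesis genes were higher in 15 of 31, median -0.002 (-0.04 to 0.02), and glycolysis genes higher in 18 of 28, median 0.04 (0.01 to 0.06). LDHA, which makes lactate, was at 0.33 ± 0.11, the only glycolysis gene by unadjusted p. Without Mix animal 2, ACAD11 was at -0.10, and without Mix animal 4, UQCR10 was at -0.11.

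Most listed germ cell genes lay higher in Mix, although HFM1, the meiotic helicase named above and not in the lists below, lay lower. Among gonocyte and spermatogonium genes, 46 of 51 measured members lay higher, with a median of 0.19 (0.09 to 0.27). By unadjusted p, 4 of them were higher and 0 lower, beside 1.66% and 1.84% of all genes. These were the methyltransferase cofactor DNMT3L (0.23 ± 0.09), ZBTB16, a regulator of spermatogonial stem cells (0.39 ± 0.15), the transcription factor LHX1 (0.26 ± 0.10) and GFRA1, a receptor for GDNF (0.40 ± 0.18). The mean over the list in each calf, as a deviation from the 9-calf mean, was -0.10, 0.08, -0.44, 0.19 and -0.12 in ISe animals 1 to 5 and -0.03, 0.02, 0.35 and 0.06 in Mix animals 1 to 4. ISe animal 3 was lowest and Mix animal 3 highest, and the other Mix calves lay between ISe animals 1 and 4. The same calves were at the ends in the germ cell helicase DDX4, at 8.65, 9.10, 8.23, 9.26 and 8.79 in ISe animals 1 to 5 and 8.87, 8.88, 9.72 and 8.99 in Mix animals 1 to 4 (0.31 ± 0.27). Meiotic and later germ cell genes lay higher in 38 of 47, median 0.07 (0.06 to 0.12): the cohesin REC8 was at 0.22 ± 0.10, MND1 of meiotic recombination at 0.30 ± 0.13, and the synaptonemal complex proteins TEX12 and SYCE1 at 0.43 ± 0.22 and 0.17 ± 0.09. Oocyte and egg coat genes lay higher in 14 of 18, median 0.04 (0.01 to 0.07), against ZP2 among the lowest genes by p, with the egg coat gene ZP3 at 0.22 ± 0.10 and KPNA7 at 0.21 ± 0.11. Without Mix animal 1, ZP3 was at 0.12, and without Mix animal 3, GFRA1 was at 0.25, DDX4 at 0.11, MND1 at 0.18, TEX12 at 0.25 and KPNA7 at 0.12.

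The means over the 4 defining germ cell markers spanned 8.69 to 9.63 in the ISe calves and 9.18 to 9.95 in Mix, and all 4 lay higher in Mix with 0 by unadjusted p. The part of germ cell content in the other results was not tested. Sertoli cell genes were higher in 14 of 29, median -0.002 (-0.02 to 0.02), with the growth factor FGF9 at 0.32 ± 0.19, INHBA at -0.22 ± 0.12 and the tight junction protein CLDN11 at 0.29 ± 0.19. AMH, the hormone that regresses the Müllerian ducts, was at -0.12 ± 0.13 and SOX9, the Sertoli cell transcription factor, at -0.02 ± 0.12. Leydig cell and steroid synthesis genes were higher in 15 of 25, median 0.007 (-0.03 to 0.03). CYP17A1, the enzyme that opens the androgen pathway, was at 0.06 ± 0.41, INSL3, the hormone of testis descent, at 0.04 ± 0.14, and LHCGR, the luteinizing hormone receptor, at 0.05 ± 0.17. The estrogen sulfotransferase SULT1E1 was the only Leydig list member by unadjusted p, at 0.20 ± 0.09 (dim). Cholesterol synthesis and uptake genes were higher in 15 of 28, median 0.007 (-0.02 to 0.04), with HSD17B7, an enzyme of cholesterol synthesis, at -0.37 ± 0.14 and the lipid carrier STARD5 at -0.24 ± 0.11. Without ISe animal 1, SOX9 was at 0.05, without ISe animal 3, FGF9 was at 0.21, SOX9 at -0.07 and LHCGR at 0.15, and without ISe animal 5, CLDN11 was at 0.20. Without Mix animal 1, AMH was at -0.22, without Mix animal 2, INSL3 was at -0.04 and LHCGR at -0.05, and without Mix animal 3, CYP17A1 was at 0.35 and INSL3 at 0.12. Without Mix animal 4, INHBA was at -0.12, AMH at -0.06 and CYP17A1 at -0.21.

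Other cells of the testis and its coverings gave smaller or mixed differences. Peritubular and smooth muscle genes were lower in 16 of 24, median -0.07 (-0.10 to -0.02), and endothelial genes in 16 of 26, median -0.02 (-0.06 to 0.01), both with 0 by unadjusted p. Genes of mesothelium and tunica were lower in 14 of 18, median -0.05 (-0.12 to -0.02), yet the 2 members by unadjusted p, KRT18 and the transcription factor BNC1 (0.26 ± 0.12), were higher. Duct epithelium genes were higher in 18 of 28, median 0.04 (0.02 to 0.06), and nerve and Schwann cell genes in 17 of 24, median 0.03 (-0.004 to 0.07), where the neuregulin receptor ERBB3 was at -0.45 ± 0.20. Red blood cell genes were higher in 17 of 25, median 0.03 (-0.03 to 0.07), and fat cell genes in 9 of 18, median -0.003 (-0.01 to 0.04), with 0 by unadjusted p in either. Without Mix animal 3, BNC1 was at 0.17.

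Matrix genes lay lower in Mix across several families. Among basement membrane genes, 20 of 24 lay lower, with a median of -0.11 (-0.18 to -0.06). NID1, nidogen, which links laminin to collagen IV, measured 11.80, 11.89, 11.76, 11.64 and 11.68 in ISe animals 1 to 5 and 11.61, 11.57, 11.26 and 11.42 in Mix animals 1 to 4. All Mix calves lay below all ISe calves, and NID1 differed by -0.29 ± 0.11. The laminin chain LAMC1 was at -0.17 ± 0.08 and the collagen IV chains COL4A3 and COL4A4 at -0.24 ± 0.14 and -0.19 ± 0.10. Collagens lay lower in 19 of 27, median -0.07 (-0.13 to -0.04): COL1A1, the main chain of type I collagen, was at -0.43 ± 0.19, COL3A1 at -0.29 ± 0.15, COL5A2 at -0.25 ± 0.14 and COL21A1 at -0.21 ± 0.09, the last without overlap. Small leucine-rich proteoglycans lay lower in 13 of 16, median -0.09 (-0.11 to -0.04). Besides LUM, FMOD, fibromodulin, was at -0.47 ± 0.19 and ASPN, asporin, at -0.31 ± 0.21. Elastic fibre and cross-linking genes lay lower in 21 of 30, median -0.06 (-0.12 to -0.02); LTBP1, which stores latent TGF-beta in the matrix, was at 9.19 to 9.56 in ISe and 8.51 to 9.03 in Mix (-0.52 ± 0.21), without overlap, the lysyl hydroxylase PLOD2 at -0.25 ± 0.11 and fibrillin, FBN1, at -0.23 ± 0.13. Without Mix animal 4, FMOD was at -0.28.

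The matrix lists shared a calf pattern. The list mean per calf was 0.14, 0.09, 0.06, -0.11 and 0.04 in ISe animals 1 to 5 and 0.03, -0.02, -0.11 and -0.12 in Mix animals 1 to 4 for basement membrane genes. For small leucine-rich proteoglycans it was 0.10, 0.08, 0.21, -0.09 and 0.06 in ISe animals 1 to 5 and -0.01, -0.04, -0.10 and -0.19 in Mix animals 1 to 4. In both, and in collagens, ISe animal 4 lay among the Mix calves and the other 4 ISe calves above 0. By unadjusted p, 2 members of each of the 4 matrix lists were lower and 0 higher, of 24 basement membrane, 27 collagen, 16 proteoglycan and 30 elastic fibre genes, beside 1.84% lower and 1.66% higher of all genes. Matrix proteases and their inhibitors were higher in 18 of 33, median 0.04 (0.002 to 0.05), with PLAUR, the urokinase receptor, at 0.27 ± 0.11 and ADAMTS9 at 0.26 ± 0.14. Sulfotransferases of glycosaminoglycans were higher in 12 of 27, median -0.02 (-0.05 to 0.02). CHST7 and HS6ST1 (-0.28 ± 0.11) were lower and CHST15 (0.42 ± 0.14) and HS6ST3, the last at 0.36 ± 0.10 (dim), higher by unadjusted p. These were 2 lower and 2 higher of 27, beside the same shares of all genes. Without Mix animal 2, PLAUR was at 0.17, and without Mix animal 4, ADAMTS9 was at 0.14.

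**Figure D4:**
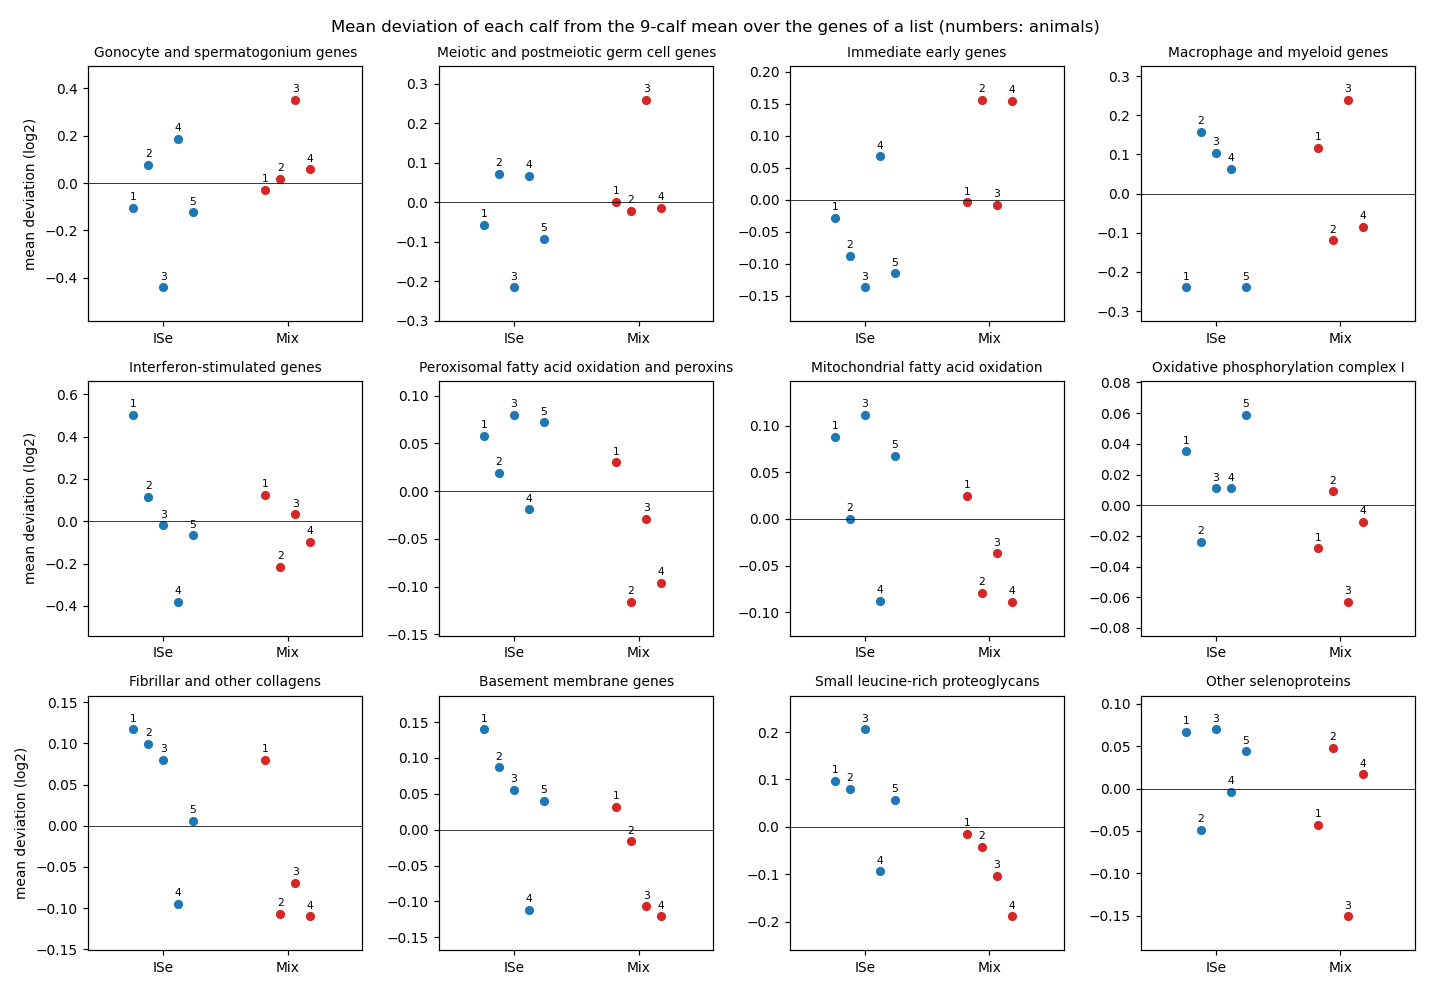
Each point is 1 calf (number: animal), and the vertical axis gives the mean over a list's genes of the calf's log2 deviation from the 9-calf mean, for 12 lists with their own scales. ISe animal 4 lies with or beyond Mix in the matrix, fatty acid oxidation and immediate early panels, ISe animal 3 is lowest and Mix animal 3 highest in both germ cell panels, and the groups overlap in every panel.

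Immediate early genes, which are switched on within minutes of a stimulus, lay higher in 34 of 38 cases, the median being 0.12 (0.10 to 0.16). Only JUNB, an AP-1 transcription factor, had an unadjusted p under 0.05. Its values were 8.44, 8.23, 8.38, 8.25 and 8.40 in ISe animals 1 to 5 and 8.49, 8.82, 8.45 and 8.83 in Mix animals 1 to 4. All Mix calves lay above ISe, animals 2 and 4 by the most, and JUNB differed by 0.31 ± 0.11. EGR2 was at 0.23 ± 0.12, FOSL1 at 0.26 ± 0.15 and the prostaglandin synthase PTGS2 at 0.19 ± 0.10 (dim). The list mean was -0.03, -0.09, -0.14, 0.07 and -0.12 in ISe animals 1 to 5 and -0.004, 0.16, -0.008 and 0.15 in Mix animals 1 to 4. Mix animals 2 and 4 were the highest, and ISe animal 4 lay above Mix animals 1 and 3. Feedback genes of NF-kB lay higher in 17 of 24, median 0.08 (0.06 to 0.10), 3 of them by unadjusted p beside 1.66% of all genes: TNFAIP3, a deubiquitinase that shuts the pathway off, at 0.23 ± 0.08 without overlap, IRF1, an interferon regulatory factor, at 0.49 ± 0.16, and NFKBIB at 0.19 ± 0.08. Glucocorticoid response genes lay higher in 20 of 26, median 0.08 (0.03 to 0.09), led by ZBTB16 and CEBPD, with the receptor NR3C1 at -0.15 ± 0.09. Cytokine and STAT3 feedback genes were higher in 18 of 32, median 0.01 (-0.01 to 0.05); PIAS3, an inhibitor of STAT3, and the interleukin 11 receptor IL11RA were at -0.24 ± 0.10 and -0.24 ± 0.10. Without ISe animal 3, EGR2 was at 0.14 and NR3C1 at -0.09, and without Mix animal 2, FOSL1 was at 0.12.

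Macrophage and myeloid genes lay higher in 23 of 29 members, median 0.10 (0.05 to 0.17). The scavenger receptors MARCO and CD163 were at 0.28 ± 0.12 (dim) and 0.34 ± 0.18, CD14 at 0.20 ± 0.13 and the complement component C1QC at 0.29 ± 0.20. Calf by calf, the mean of these genes spanned -0.24 to 0.16 in ISe and -0.12 to 0.24 in Mix, and the means over the 4 defining macrophage markers from 7.89 to 8.66 and from 8.45 to 8.88. Granulocyte and mast cell genes lay higher in 18 of 25, median 0.08 (0.05 to 0.10), and 12 of the 25 were above the dim cutoff. S100A9, S100A8 and ELANE were at 0.26 ± 0.10, 0.54 ± 0.23 (dim) and 0.18 ± 0.07 (dim). Lymphocyte genes were higher in 23 of 35, median 0.07 (-0.004 to 0.13). The B cell factor PAX5 was at 0.26 ± 0.11, JCHAIN, which joins immunoglobulin chains, at -0.28 ± 0.07 (dim) and the granzyme GZMB at -0.31 ± 0.13. All were without overlap, 1 higher and 2 lower of the 35, beside 0.547% and 0.481% of all genes. Chemokines and their receptors were higher in 22 of 36, median 0.04 (0.004 to 0.07), with the scavenging receptor ACKR4 at 0.31 ± 0.10 (dim). The part of blood or immune cell content in these differences was not tested. Without ISe animal 3, PAX5 was at 0.16, without ISe animal 5, CD163 was at 0.20 and CD14 at 0.08, and without Mix animal 3, C1QC was at 0.17, S100A8 at 0.34 and GZMB at -0.20.

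Interferon-stimulated genes lay lower in 28 of 34 members, median -0.07 (-0.20 to 0.06), with 0 by unadjusted p. The list mean was 0.50, 0.12, -0.02, -0.38 and -0.07 in ISe animals 1 to 5 and 0.12, -0.21, 0.03 and -0.10 in Mix animals 1 to 4, and without ISe animal 1, the highest, the median turned to 0.06. RSAD2, an antiviral enzyme, was at -0.33 ± 0.25, CMPK2 at -0.21 ± 0.13 and RTP4 at -0.21 ± 0.14. Cattle histocompatibility genes were higher in 19 of 28, median 0.05 (0.02 to 0.10). BOLA-DQA1 nonetheless had the largest negative difference of the named genes apart from the locus LOC100140174. The peptide transporter TAP1 was at 0.38 ± 0.23 and CD1D at -0.28 ± 0.15. Complement genes were higher in 22 of 33, median 0.05 (-0.003 to 0.09), with C4A at 0.26 ± 0.11 and CD59, which blocks the terminal complex, at -0.26 ± 0.08. Interleukin 1 family and alarmin genes were higher in 15 of 21, median 0.05 (0.02 to 0.07), against IL33. Only 9 of the 21 were above the dim cutoff. Without ISe animal 1, RSAD2 was at -0.06, CMPK2 at -0.11 and RTP4 at -0.10, and without Mix animal 4, TAP1 was at 0.25.

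In developmental pathways the list medians lay between -0.05 (Hedgehog) and 0.07 (FGF). Semaphorins, plexins and neuropilins were higher in 19 of 31, median 0.01 (-0.005 to 0.04); the plexin PLXND1 was at 0.22 ± 0.10, PLXNC1 at -0.26 ± 0.13 and SEMA5A at -0.28 ± 0.15. WNT pathway genes were higher in 32 of 55, median 0.04 (0.007 to 0.05), while SFRP2 and DKK3, secreted modulators of WNT, were lower at -0.69 ± 0.24 and -0.39 ± 0.18 by unadjusted p. TGF-beta and BMP genes were higher in 25 of 52, median -0.01 (-0.03 to 0.02), with the ligands BMP6, BMP7 and INHBC at 0.39 ± 0.15, 0.33 ± 0.14 and 0.22 ± 0.09. FGF genes were higher in 28 of 39, median 0.07 (0.03 to 0.09), although its first member by p, FGF1, was at -0.40 ± 0.18; KL, the co-receptor klotho, was at 0.22 ± 0.11 without overlap. HOX genes were higher in 17 of 34, median -0.005 (-0.05 to 0.06), with HOXB9 above and HOXC6 and HOXC5 (-0.44 ± 0.18 and -0.33 ± 0.14) below ISe by unadjusted p. Of all genes, 1.66% were higher and 1.84% lower by unadjusted p. Without Mix animal 2, PLXND1 was at 0.14, and without Mix animal 4, PLXNC1 was at -0.16, FGF1 at -0.26 and HOXC6 at -0.28.

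Hedgehog genes were lower in 13 of 21, median -0.05 (-0.08 to -0.01), with the co-receptor CDON at -0.21 ± 0.09, and Notch genes higher in 17 of 31, median 0.02 (-0.008 to 0.05). IGF and insulin genes were higher in 15 of 28, median 0.007 (-0.03 to 0.02), and imprinted growth genes lower in 15 of 23, median -0.05 (-0.06 to -0.008), where NNAT, neuronatin, was at -0.44 ± 0.20. Receptors and enzymes of lysophosphatidic acid and sphingolipids were lower in 14 of 24, median -0.06 (-0.07 to -0.01): LPAR1 was at -0.41 ± 0.15 and the sphingosine phosphate lyase SGPL1 at -0.32 ± 0.11, opposite to LPAR2. Retinoid genes were lower in 15 of 26, median -0.03 (-0.07 to -0.003), one-carbon genes higher in 18 of 26, median 0.03 (0.01 to 0.06), and amino acid transporters higher in 19 of 31, median 0.02 (-0.009 to 0.03), with the glutamine transporter SLC38A1 at 0.26 ± 0.09.

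The list medians of stress and housekeeping genes lay between -0.04 (lysosome) and 0.03 (unfolded protein response). Chaperones were higher in 20 of 34 with a median of 0.02 (-0.01 to 0.04), unfolded protein response genes in 19 of 32 with a median of 0.03 (-0.02 to 0.05), hypoxia genes in 14 of 28 with a median of -0.002 (-0.03 to 0.04) and clock genes in 12 of 19 with a median of 0.02 (0.01 to 0.07). The co-chaperone DNAJA4 was at 0.33 ± 0.12, the stress kinase homologue TRIB3 at 0.28 ± 0.12 (dim) and BHLHE40, a repressor in the clock and hypoxia lists, at 0.28 ± 0.12. Genes of p53 and apoptosis were lower in 16 of 30, median -0.01 (-0.03 to 0.005), with RRM2B, a ribonucleotide reductase subunit for DNA repair, at -0.27 ± 0.09 without overlap. Cell cycle genes were higher in 28 of 55 with a median of 0.004 (-0.05 to 0.04) with 0 by unadjusted p, and chromatin enzymes in 25 of 48 with a median of 0.006 (-0.01 to 0.03), where TET1, which oxidises methylcytosine, was at -0.42 ± 0.19. Ribosomal protein genes were lower in 29 of 38, median -0.03 (-0.05 to -0.003), and lysosome genes in 28 of 43, median -0.04 (-0.10 to -0.007), with the protease CTSD at 0.17 ± 0.07. Proteasome genes were higher in 21 of 39, median 0.009 (-0.04 to 0.04).

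The number of probe sets with an unadjusted p under 0.05 depended on single calves. It was 995 with all calves, 674 without ISe animal 3 and 1731 without ISe animal 4, with 763 higher and 968 lower in Mix. Without Mix animal 3 the lowest adjusted p was 0.283, and in every leave-one-out run 0 probe sets passed the adjusted threshold.

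**Figure D5:**
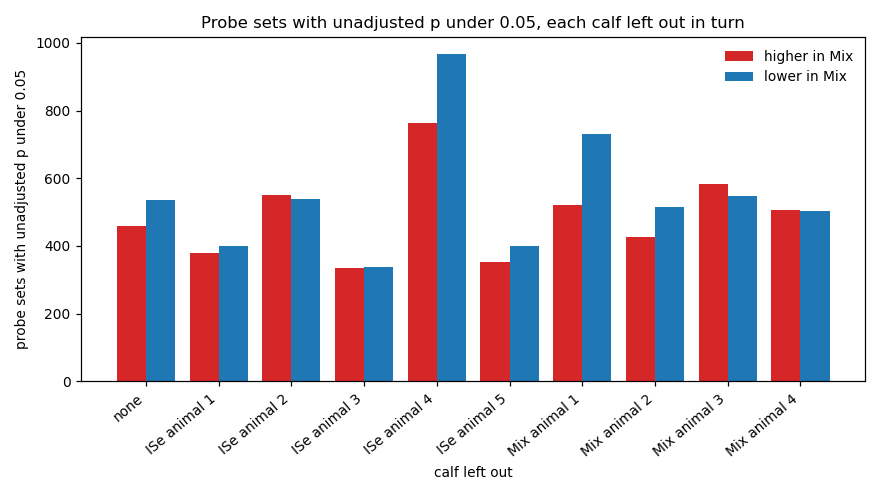
Bars count the probe sets with an unadjusted limma p under 0.05, higher (red) or lower (blue) in Mix, with all calves and with each ISe or Mix calf left out. The count is lowest without ISe animal 3 (336 and 338) and highest without ISe animal 4 (763 and 968).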

How the data were processed

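Testis RNA of each calf was hybridised to 1 Affymetrix array as biotin-labelled cRNA, after Trizol extraction and oligo(dT) priming, per the labels' protocols. The deposited table gave the authors' log2 expression values, which ran from 2.07 to 14.6. GCOS 1.2 and Partek 6.4 are named in the submitters' processing notes without their roles. How the arrays were background-corrected, normalized and centred is not given in the sources used here. Scanner files were not used. Precision is limited by the number of arrays.

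Of 26773 probe sets, 18550 had 1 gene symbol, 595 several and 7628 none in the platform annotation, and none was named from several. The reference gene table (ARS-UCD2.0) held 17996 of the 18166 identifiers that stood alone and changed 0 symbols. A model with 1 mean for each of the 3 groups was fitted to all 13 arrays in limma 3.58.1 (R 4.3.3), using empirical Bayes moderation, so that OSe contributed to the estimate of the spread, and Mix minus ISe was tested two-sided with Benjamini-Hochberg adjustment over all probe sets (threshold 0.05). Errors of differences are SE from this fit. For genes and lists the brightest of a gene's probe sets was used.

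The named genes were the 15 with the smallest p and the 10 with the largest difference on each side (1 symbol, no placeholder, microRNA or small nucleolar RNA locus, mean above the 25th percentile), up to 4 members of each list by p, and 18 genes always named. Those 18 were testis and selenium genes together with NQO1, RNF141, ACOX3, LUM and IL33. STAR, one of these, had no probe set of its own. SCP2, LOC100140174, the array markers and the neighbours of RNF141 and GPX3 were named outside this rule. The comparison, the lists and the rule were chosen with earlier results of these data known, so the lists are described without a test. The fit was tested on simulated data. Alternatives were other normalizations, filters, moderation, the 9 arrays alone, a replicate block and leaving out each calf. Figures were drawn with matplotlib 3.10.9 (Python 3.11.15).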

Additional observations from a re-analysis of the deposited data

Results flagged for a closer look

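In some genes 1 calf stood apart from the others of its group, relative to that group's own range, which was narrow in MCTP2. The measure is the gap from the highest or lowest calf to its nearest neighbour, as a share of the group's range, held against the 95% critical value of Dixon's test. Chance gives about 1 such case in 20 groups. With 181 genes named in the text, each with an ISe and a Mix group, the cases in genes listed below are about as many as chance would give.

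ISe animal 1 was the lowest calf of its group in KL (0.801). ISe animal 2 was the lowest calf of its group in CD59 (0.893) and PLXNC1 (0.723). ISe animal 2 was the highest calf of its group in OR13P13 (0.859). ISe animal 3 was the lowest calf of its group in EGR2 (0.727), PAX5 (0.773) and TEX12 (0.747). ISe animal 4 was the highest calf of its group in SLC38A1 (0.903). ISe animal 5 was the lowest calf of its group in CD163 (0.753) and FOSL1 (0.837). ISe animal 5 was the highest calf of its group in ZNF572 (0.81). Mix animal 1 was the lowest calf of its group in CLDN11 (0.877). Mix animal 1 was the highest calf of its group in COL4A3 (0.863). Mix animal 2 was the lowest calf of its group in LTBP1 (0.915). Mix animal 2 was the highest calf of its group in PLXND1 (0.887). Mix animal 3 was the highest calf of its group in CD14 (0.836) and DDX4 (0.85). Mix animal 3 was the lowest calf of its group in GPX5 (0.851) and MCTP2 (0.926). The array median of OSe animal 2 stood apart in the same way (0.848). No explanation was weighed.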

How the results depend on the processing

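The count of probe sets with an adjusted p under 0.05 stayed 0 under all alternatives run. The unadjusted count of 995 was 793 (376 higher and 417 lower) with the animal number as a replicate block, and between 674 and 1731 with 1 calf left out. The labels give no pairing for such a block. The deviations of animals 1 to 4 from their group means correlated at -0.008, -0.08, -0.15 and 0.10 between ISe and Mix. Whether calves of the same number shared anything was not tested. Under the replicate block SOX9 was at 0.002, and no other named gene changed sign there or under another normalization, filter or moderation. The split of 459 higher and 536 lower was 459 and 570 after quantile normalization, 467 and 635 with array medians subtracted, and 480 and 465 without moderation. Groups stood apart in 273 probe sets with all calves and in 420 to 955 with 1 calf left out, where fewer calves have to be apart.

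With 1 calf left out, 7 named genes changed sign in at least 1 run: CYP17A1 (-0.210 to 0.347), GPX1 (-0.057 to 0.017), GPX4 (-0.025 to 0.060), GPX6 (-0.172 to 0.068), INSL3 (-0.038 to 0.123), LHCGR (-0.049 to 0.151) and SOX9 (-0.065 to 0.046). List medians that moved by more than the spread between calves were those of cytokine and STAT3 feedback (-0.011 to 0.049), FGF (0.032 to 0.086), glutathione synthesis (-0.064 to -0.008), iron (-0.050 to 0.029), lysophosphatidic acid and sphingolipids (-0.066 to -0.014), lysosome (-0.097 to -0.007), metallothioneins (-0.059 to 0.044) and thyroid genes (-0.093 to -0.001). With dim probe sets left out, the mesothelium median was -0.14 and that of matrix proteases -0.008, on fewer genes. The cause of the other moves was not tested. Signal over background was not available from the values used, so dim genes may be less precise than their errors show.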
